A study of Drosophila melanogaster with 5 samples.

Results

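Genes of the zona pellucida (ZP) domain family were examined in larval cephalic complexes, which are brains dissected together with their eye-antennal imaginal discs. The 10 genes were pot, pio, dpy, dyl, tyn, mey, neo, nyo, m and cyr, and their probe sets were found by current gene symbol, older symbol or gene identifier among those annotated with a single gene. Of the 10 genes, 8 had a probe set, and these 8 genes had 10 of the 18769 probe sets tested on the Affymetrix Drosophila 2.0 array. nyo and m had no probe set named here and were not analysed. The family was put forward with the differences between these same arrays already known, so the changes described below were part of the reason for looking at it. The adjusted p-values come from a model fitted to all probe sets and describe that fit. They are no test of the family.

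The mutant larvae carried 2 different null alleles of lethal giant larvae, lgl27S3/lglE2S31, and were taken at day 4 of a prolonged 3rd instar (3 arrays, called lgl below). The FRT82B larvae, labelled wild-type and named for a recombination target site on a chromosome arm, were taken at day 0 of the 3rd instar (2 arrays). Both alleles were present in the whole animal, with no driver or clone, so every cell type of the dissected tissue was mutant. Genotype and age differed together between the groups and cannot be told apart, and all changes are given as lgl day 4 minus FRT82B day 0 on the log2 scale. In such bulk tissue, fewer cells of a type and less RNA per cell cannot be told apart.

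ZP domain proteins of the fly are secreted or membrane-anchored proteins that polymerise at the apical face of epithelia. There they form the apical extracellular matrix, which lies between the cell and the cuticle, shapes denticles and hairs, fills tracheal tubes and holds epidermis to cuticle under tension. In imaginal discs the apical face borders the disc lumen, and Lgl is itself part of the machinery that keeps apical and basal sides of these cells distinct.

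The genotype and the tissue were checked first. l(2)gl, the mutated gene, read 2.44, 2.40 and 2.24 on the lgl arrays and 7.74 and 6.74 on the FRT82B arrays. The lgl arrays were alike (correlations over probe sets from 0.995 to 0.997), whereas the FRT82B arrays correlated at 0.981. FRT82B array 2 correlated slightly more with each lgl array (0.982 to 0.984) than with FRT82B array 1. FRT82B array 1 correlated with the lgl arrays at 0.970 to 0.972. The 3′ minus 5′ difference of the actin control probe sets, a sign of RNA quality, was lower in lgl (0.355 to 0.576) than in FRT82B (0.714 and 0.732). That of eIF-4a was also lower in lgl (1.41 to 1.65) than in FRT82B (1.68 and 2.01), whereas that of GAPDH overlapped (1.18 to 1.36 in lgl, 1.21 and 1.37 in FRT82B). The part of this difference in the results was not tested. Median log2 levels of 7 measured brain markers were 8.84 to 8.89 in lgl and 7.90 and 8.38 in FRT82B. The neuroblast genes mira (2.54, called) and dpn (1.20, not called) had higher means in lgl. Another neuroblast gene, ase (0.15, not called), overlapped between the groups. The glial gene repo (0.78, not called) had all lgl arrays above both FRT82B arrays. The neuronal genes nSyb (-0.68), brp (-0.45) and elav (-0.43), none of them called, had lower means in lgl. All lgl arrays of nSyb lay below both FRT82B arrays, while brp and elav overlapped. Against FRT82B array 1 alone, the lgl mean differed by 0.0007 for brp and by 0.12 for elav. Median log2 levels of 6 eye-antennal disc markers were 6.88 to 7.03 in lgl and 6.35 and 7.21 in FRT82B. None of these 13 genes lay under the array medians (3.79 to 3.86) on all 5 arrays. Since the larval brain also expresses genes of the disc list, these readings do not separate brain from disc.

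Within the family, pot and pio had the highest lgl levels relative to FRT82B, dpy and neo followed with smaller differences, and dyl, tyn, mey and cyr differed by less than 0.5 on the log2 scale. Of the 10 probe sets, 1 was called higher, 0 were called lower and 9 were not called in the limma fit, where a call needs an adjusted p below 0.05 and a log2 change of 1 or more in either direction. Over all probe sets 1.05% were called, 0.543% higher and 0.506% lower. With 1 symbol and the brightest probe set for each gene, the family's median change was 0.65 over 8 genes, beside -0.03 over 11953 genes. All lgl arrays lay above both FRT82B arrays on 5 of the 10 probe sets and below them on 1, beside 14.7% and 20.2% of all probe sets. Because the family was chosen with this contrast in view, nothing is read from these counts.

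**Figure D1:**
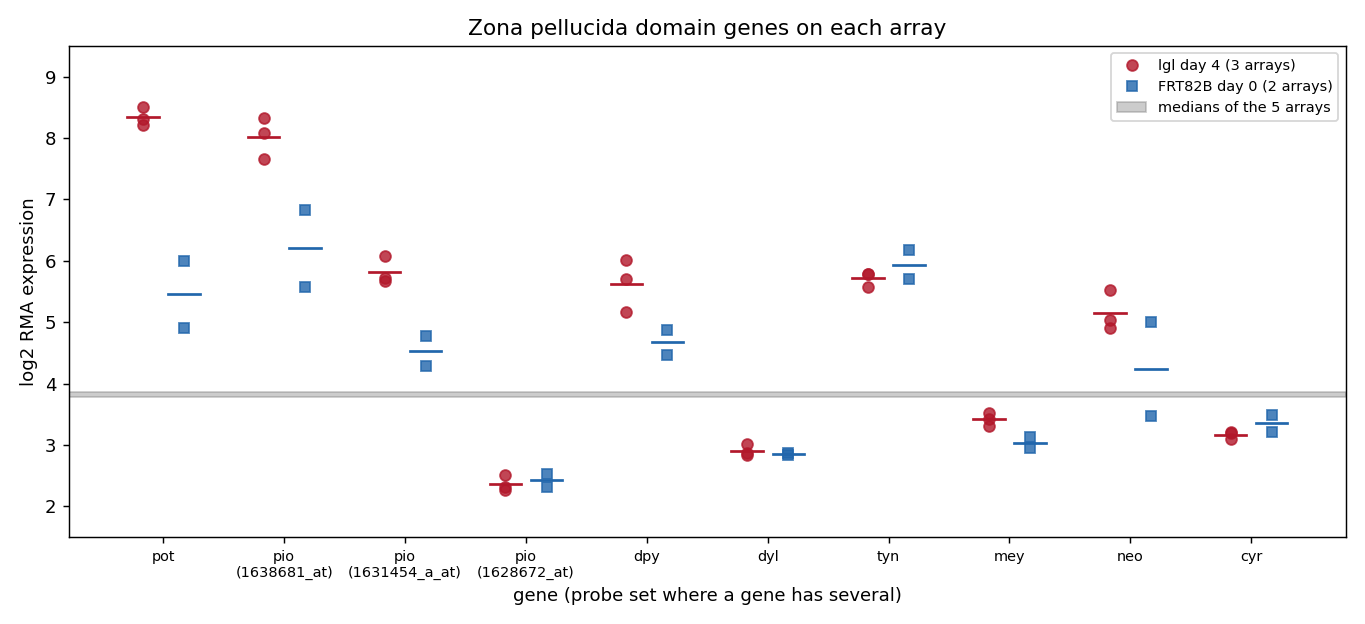
Log2 RMA expression (vertical axis) of each of the 10 probe sets of 8 ZP domain genes (horizontal axis), with a red circle for each of 3 lgl day 4 arrays, a blue square for each of 2 FRT82B day 0 arrays, a bar at each group mean and a grey band over the medians of the 5 arrays. The pot arrays lie at 8.21 to 8.51 in lgl and at 4.91 and 6.004 in FRT82B, and both groups of dyl lie under the band.

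The 3 genes that hold the wing to its cuticle were considered together. pot (papillote) and pio (piopio) encode ZP domain proteins of the apical cell surface, and dpy (dumpy) encodes a giant filamentous protein of many EGF repeats that ends in a ZP domain. In the pupal wing, loss of any of them lets the epidermis come away from the cuticle, and pio and dpy also build the matrix inside growing tracheal tubes.

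pot read 8.21, 8.51 and 8.31 on the lgl arrays and 4.91 and 6.004 on the FRT82B arrays. The lgl arrays lay close together and far above both FRT82B arrays, which differed from each other by 1.10. The means were 8.35 ± 0.15 in lgl (SD, n = 3) and 5.46 ± 0.78 in FRT82B (SD, n = 2). In the limma fit this was a log2 change of 2.89 (SE 0.35, adjusted p = 0.0449), a 7.41-fold higher level. In order of log2 change it was number 28 from the top among all 18769 probe sets. The probe set of pot is of the kind that, by its name (1625154_s_at), holds probes which can match more than one transcript, so that a share of its signal from another transcript cannot be told apart. pot no longer passed the limma threshold on removal of an lgl array, whichever it was (adjusted p between 0.192 and 0.245). In those fits 0 probe sets of the whole table were called, and the change of pot stayed between 2.81 and 2.96. Its change was 2.34 without FRT82B array 1 and 3.44 without FRT82B array 2.

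pio was measured by 3 probe sets, which did not behave alike. The brightest, 1638681_at, read 7.65, 8.33 and 8.08 in lgl and 5.57 and 6.84 in FRT82B. The groups did not overlap, but the FRT82B arrays lay 1.27 apart, and the log2 change of 1.82 (SE 0.44) was not called (adjusted p = 0.138). The next, 1631454_a_at, read 5.66, 6.08 and 5.72 in lgl and 4.29 and 4.78 in FRT82B. This change, 1.29 (SE 0.21), had the smaller error of the pair, and it too missed the threshold (adjusted p = 0.0705), although it passed among the brighter probe sets alone (adjusted p = 0.0336). Without FRT82B array 2 the changes were 2.45 for 1638681_at and 1.53 for 1631454_a_at. Without FRT82B array 1 they were 1.19 and 1.05. Of 11 alternative fits, 1638681_at was called in 1 and 1631454_a_at in 2. The third, 1628672_at, read 2.51, 2.32 and 2.26 in lgl and 2.32 and 2.53 in FRT82B. The floor of the arrays, their lowest reading, was 1.98 to 2.09, so that the third probe set read close to it in both groups.

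The 2 brighter pio probe sets also did not differ between groups by the same step. The difference of 1638681_at minus 1631454_a_at was 1.99, 2.26 and 2.36 on the lgl arrays and 1.28 and 2.06 on the FRT82B arrays. It was lowest on FRT82B array 1, the array with the lowest reading of both, and FRT82B array 2 lay within the range of the lgl arrays. The suffix of 1631454_a_at marks a probe set shared by several transcripts of 1 gene. Which transcripts each probe set detects was not analysed here.

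dpy read 5.17, 5.70 and 6.01 on the lgl arrays and 4.47 and 4.88 on the FRT82B arrays. The groups did not overlap, with 0.30 between the lowest lgl array and the higher FRT82B array. The lgl arrays of dpy were the most spread of the family (5.63 ± 0.42, SD, n = 3, against 4.67 ± 0.29, SD, n = 2, in FRT82B), and the change of 0.95 (SE 0.29) was not called (adjusted p = 0.197). Whichever array was left out, it stayed between 0.75 and 1.18.

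The remaining measured genes, apart from cyr, have roles in the shape of single epidermal cells. In the embryo, dyl (dusky-like), tyn (trynity), mey (morpheyus) and neo (neyo) are each laid down in a distinct zone of the growing denticle, and dyl is also needed for bristles and wing hairs. nyo (nyobe) and m (miniature), both without a probe set here, belong to the same group. None of the measured members was called.

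neo read 5.03, 4.91 and 5.52 on the lgl arrays and 3.47 and 5.01 on the FRT82B arrays. FRT82B array 2 lay inside the range of the lgl arrays, and the gap of 1.54 between the FRT82B arrays was larger than on 98.8% of all probe sets. The change of 0.91 (SE 0.51, adjusted p = 0.423) became 1.68 with FRT82B array 1 as the control and 0.14 with FRT82B array 2, so that its size rested on which control array was used.

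mey read 3.42, 3.32 and 3.53 in lgl and 3.13 and 2.96 in FRT82B. All 3 lgl arrays were higher, and the difference of 0.38 (SE 0.10, adjusted p = 0.156) was small beside those of pot and pio. All of its readings lay under the array medians. Readings this low, of mey as of dyl and cyr, can be compressed by RMA. Whether real changes are larger than the values given was not tested.

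tyn read 5.58, 5.79 and 5.79 in lgl and 5.70 and 6.18 in FRT82B. The groups overlapped, and the change of -0.22 (SE 0.17, adjusted p = 0.521) turned to 0.02 without FRT82B array 2. Among the 5 genes whose brightest probe set was not under the array medians throughout, tyn was the only one with a lower lgl mean.

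dyl read 2.84, 2.87 and 3.02 in lgl and 2.87 and 2.84 in FRT82B. cyr, a ZP domain gene for which no role is given here, read 3.09, 3.19 and 3.21 in lgl and 3.49 and 3.22 in FRT82B. Both genes lay under the array medians on all 5 arrays, with changes of 0.06 (SE 0.08, adjusted p = 0.722) for dyl and -0.19 (SE 0.11, adjusted p = 0.425) for cyr. The cyr arrays of lgl were all lower, but the closest lgl and FRT82B arrays differed by about 0.01. In all, 4 of the 10 probe sets stayed under the array medians throughout, which were those of dyl, mey and cyr and the third of pio, beside 8776 of all 18769.

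**Figure D2:**
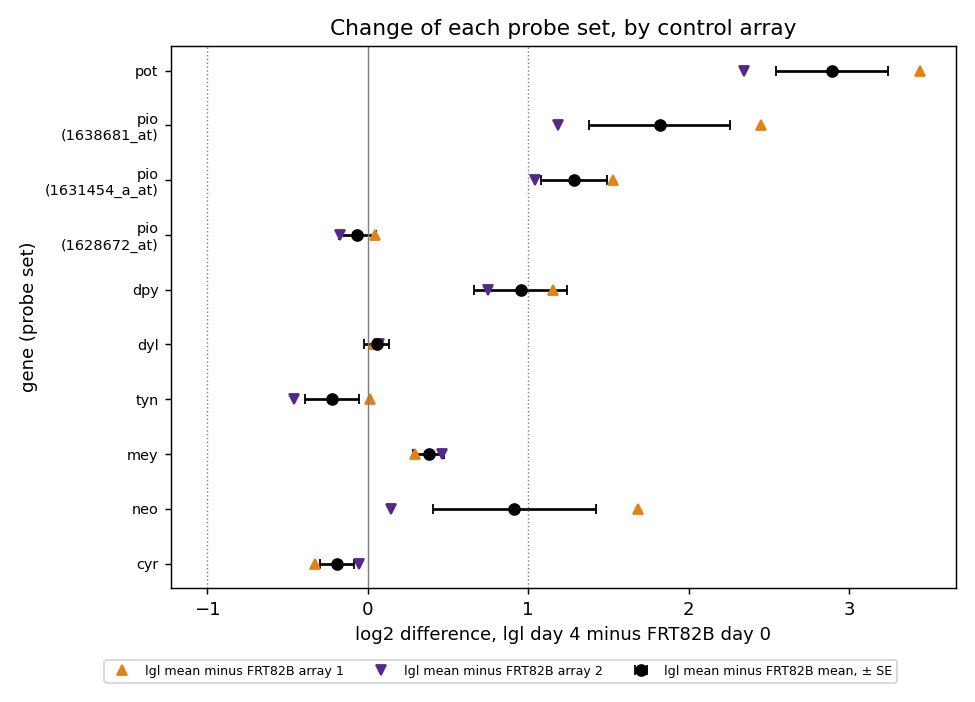
Log2 difference, lgl day 4 minus FRT82B day 0 (horizontal axis), of the 10 ZP domain probe sets (vertical axis). Black circles with bars give the change ± SE from limma, orange triangles the lgl mean minus FRT82B array 1 and purple triangles the lgl mean minus FRT82B array 2, with dotted lines at -1 and 1. For neo the purple triangle lies at 0.14 and the orange one at 1.68, whereas for pot both lie above 2.

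The FRT82B arrays were then compared with each other, a comparison other than the one between the groups. FRT82B array 2 was higher than FRT82B array 1 on 7 of the 10 probe sets, beside 8028 of all 18769. The median difference was 0.44, beside -0.02 over all probe sets. The gap was at least 1 on 3 of the 10 probe sets (pot, 1638681_at of pio, and neo), while 5.3% of all probe sets had such a gap. On 6 of the 10, FRT82B array 2 lay between FRT82B array 1 and the lgl mean, beside 41.7% of all probe sets. These 6 were pot, both brighter probe sets of pio, dpy, neo and cyr. With the lgl mean set against 1 FRT82B array at a time, the family's median change was 0.73 against array 1 and 0.30 against array 2. The 2 arrays carry the same label, and whether they differ in stage, dissection or RNA was not tested. Being 2 arrays, they give a description of their own difference and no estimate of how often it would recur.

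Members differed in how near they came to pot over the arrays. After each probe set was centred on its own mean, the root mean square distance to pot over the 5 arrays was 0.543 for 1638681_at of pio, 0.811 for 1631454_a_at of pio, 1.00 for dpy and 1.01 for neo. It was 1.30 to 1.57 for the other probe sets. In order of likeness to pot, 54 probe sets with 1 symbol came before the first of pio. The 5 nearest genes were Hipk (0.132), a kinase gene, pros (0.141), a cell fate factor of neural precursors, CG6739 (0.168), Fbxl4 (0.199) and mira (0.218), the adaptor that carries Prospero in dividing neuroblasts. Hipk read 8.26, 8.65 and 8.69 in lgl and 4.90 and 6.18 in FRT82B, and its change of 2.99 (SE 0.42) was not called (limma adjusted p = 0.0570). The nearest genes share with pot a high level on all lgl arrays and an FRT82B array 2 above array 1. That likeness follows from how they were picked, by distance to pot over these same arrays. This order is a description over 5 arrays of 2 groups.

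**Figure D3:**
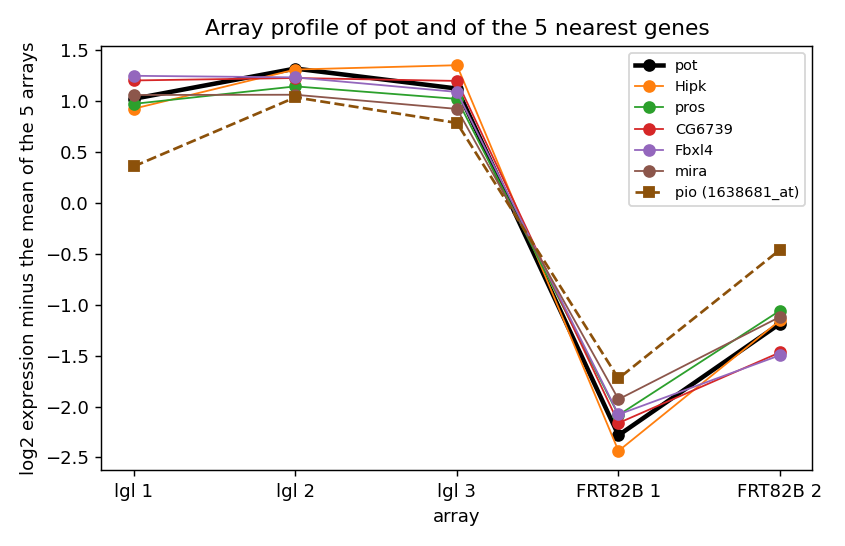
Log2 expression minus the mean of the 5 arrays (vertical axis) on each array (horizontal axis) for pot (thick black line), the 5 genes nearest to it and 1638681_at of pio (dashed line). All profiles are high on the 3 lgl arrays, lowest on FRT82B array 1 and intermediate on FRT82B array 2.

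The family was next set beside its other members and partners, from lists of genes chosen by function. Of 4 further ZP domain genes, dy (dusky), qsm (quasimodo), nompA and zye, 0 were called, and their median change was 0.08. qsm, which acts in the light input to the circadian clock, read 6.78, 6.80 and 6.84 in lgl and 5.52 and 6.81 in FRT82B. Its FRT82B array 2 was at the lgl level, as with neo, and the change was 0.64 (SE 0.39, adjusted p = 0.445). nompA, whose protein joins sensory dendrites to the cuticle, differed by 0.11 (SE 0.08, adjusted p = 0.502), and dy and zye stayed under the array medians on all arrays. In the gene order of the Release 6 assembly, mey and nyo are neighbouring coding genes, and m and dy have 1 coding gene, CG9360, between their starts. Neither pair had a probe set for both genes.

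ovo, whose Shavenbaby protein switches on ZP domain and other genes in cells that make denticles and hairs, was considered with 5 trichome genes (sha, f, sn, mwh and y). Of these 6 genes 0 were called, and the median change was -0.02. ovo read 4.56, 4.86 and 4.86 in lgl and 3.85 and 4.04 in FRT82B. The groups did not overlap, with a change of 0.82 (SE 0.13, adjusted p = 0.0705). sn, which encodes the actin bundling protein fascin, read 9.38, 9.36 and 9.35 in lgl and 9.25 and 9.88 in FRT82B, a change of -0.20 (SE 0.20, adjusted p = 0.610). sha, f, mwh and y each differed by less than 0.2 in either direction and lay under the array medians on all arrays.

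Of the proteases that cut ZP domain proteins, 2 of 3 were measured and 0 were called. Np, a membrane protease that acts on the matrix of tracheal tubes, stayed low (3.65, 3.65 and 3.51 in lgl, 3.84 and 3.65 in FRT82B), with a change of -0.14 (SE 0.09, adjusted p = 0.466). Fur2, a furin, differed by 0.26 (SE 0.19, adjusted p = 0.496).

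Chitin is the other main material of apical matrices, and genes for it had higher means in lgl throughout. Of 7 measured genes 7 had a change above 0 and 0 were called. All lgl arrays lay above both FRT82B arrays on 6 of them, beside 14.7% of all probe sets. Their median was 1.20. serp and verm, which encode chitin deacetylases of the tracheal lumen, differed most. serp read 8.17, 8.11 and 8.04 in lgl and 4.33 and 6.35 in FRT82B, a change of 2.77 (SE 0.61, adjusted p = 0.120). verm differed by 2.64 (SE 0.68, adjusted p = 0.154). As for pot and pio, FRT82B array 2 was above array 1, here by a median of 1.79, and the list's median change was 2.30 with FRT82B array 1 as the control and 0.53 with array 2. mmy, named after its values were seen, had an adjusted p of 0.0466 with a change of 0.59 (SE 0.07), too small for the fold cut-off.

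**Figure D4:**
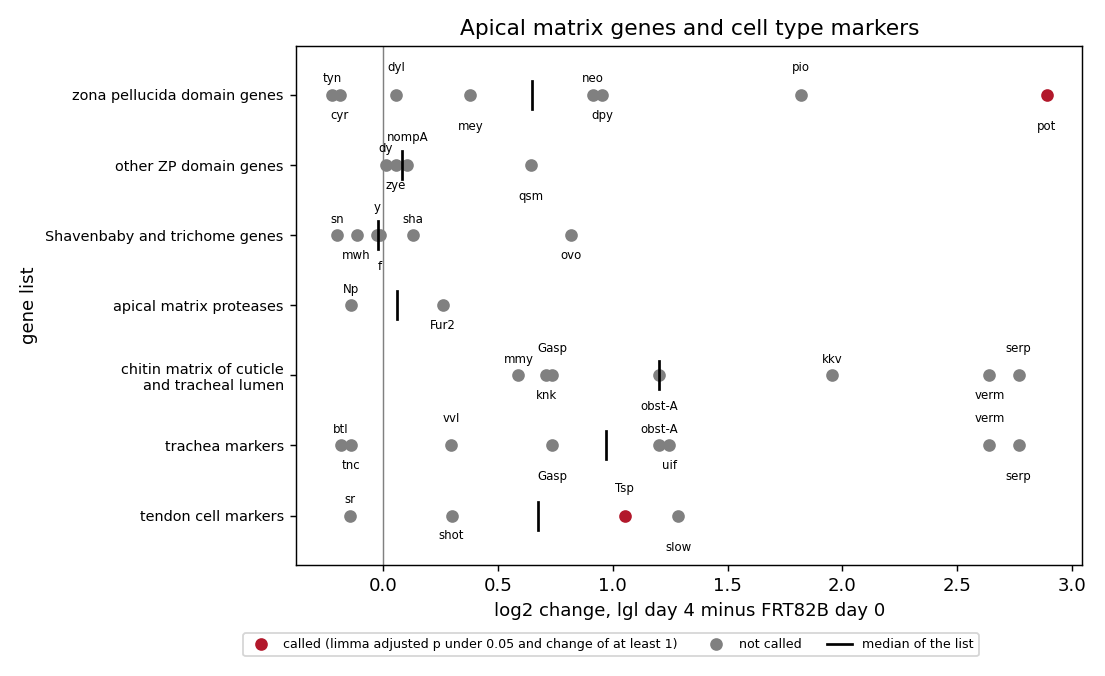
Log2 change, lgl day 4 minus FRT82B day 0 (horizontal axis), of each gene by its brightest probe set in 7 gene lists (vertical axis), in red where called and grey where not, with a black line at each list's median. The ZP domain genes extend from -0.22 (tyn) to 2.89 (pot), and the further ZP domain genes other than qsm lie near 0.

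Markers of other cell types that make apical matrix were examined on the same arrays. Of 8 measured trachea markers, 6 had a change above 0, 2 had a change below 0 (btl, -0.18, and tnc, -0.14), and 0 were called. All lgl arrays lay above both FRT82B arrays on 4 of them, beside 14.7% of all probe sets. The sum of their levels on the linear scale was 1399 to 1747 in lgl and 395 and 915 in FRT82B. The defining markers were less well covered. btl, the FGF receptor of tracheal cells, read 3.55, 3.47 and 3.55 in lgl and 3.86 and 3.55 in FRT82B, under the array medians throughout, and trh was not measured. Of 8 trachea markers, 4 (serp, verm, Gasp and obst-A) are also on the chitin list. These 4 are the brightest in lgl (means 8.11 to 8.77) and weigh most in the lgl sum, so it largely repeats the chitin list. Of the others, only uif (1.25, not called) had all lgl arrays above both FRT82B arrays. The change of vvl was 0.30, and those of tnc and btl were below 0. Of 4 measured tendon cell markers, 1 was called, beside 1.05% of all probe sets. It was Tsp, the thrombospondin of muscle attachment sites (1.05, SE 0.07, adjusted p = 0.0209). All lgl arrays lay above both FRT82B arrays on 3 of the 4, beside 14.7% of all probe sets. The sum of the 4 levels was 1196 to 1358 in lgl and 839 and 1053 in FRT82B. The brightest of the 4, shot (9.88 to 10.03 in lgl), weighs most in this sum and changed by 0.30, not called. sr, which defines tendon cells, went the other way (-0.15), with all lgl arrays (2.64 to 2.76) below both FRT82B arrays (2.84 each), and its readings lay under the array medians. Of 5 measured epithelium markers, 1 was called, beside 1.05% of all probe sets. It was the apical determinant crb (1.21, SE 0.13, adjusted p = 0.0356). Nrx-IV (0.34), Nrg (0.27), shg (0.27) and cora (0.07) changed less, and the list's median change was 0.27. All lgl arrays lay above both FRT82B arrays on 4 of the 5, beside 14.7% of all probe sets, and cora overlapped. The sum of the 5 levels was 2479 to 2677 in lgl and 1993 and 2258 in FRT82B. The part of trachea, tendon cells or epithelium in the levels of pot and pio was not tested.

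Other tissues that could adhere to the dissected complexes also differed. Haemocyte markers (5 measured, 0 called) summed to 263 to 555 in lgl and 144 and 190 in FRT82B, with a median change of 0.96, and all lgl arrays lay above both FRT82B arrays on 4 of the 5, beside 14.7% of all probe sets. The exception was Hml, a defining marker, whose groups overlapped. Fat body markers (3 measured, 0 called) summed to 591 to 4148 in lgl and 169 and 360 in FRT82B, with lgl array 1 the highest. Their median change was 1.48, and all lgl arrays lay above both FRT82B arrays on 2 of the 3, while Fbp1 overlapped. Lsp2 differed most (3.32, SE 0.97, adjusted p = 0.185). Muscle markers (4 measured, 0 called) summed to 54.3 to 67.2 in lgl and 130 and 68.1 in FRT82B. Their median change was -0.64, and all lgl arrays lay below both FRT82B arrays on 2 of the 4, beside 20.2% of all probe sets. The part of these tissues in the results was not tested.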

How the data were processed

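RNA of cephalic complexes was hybridised to 5 Affymetrix arrays, each holding 20 pairs of complexes per the labels, while the study's methods give complexes. The study's text names its control larvae differently from the labels. FRT82B is used here. Titles assigned the groups and call the arrays biological replicates. A further FRT82B array that the submitters set aside was not analysed here. The authors deposited RMA values, which are background-corrected, quantile-normalised log2 readings of each probe set on each array. Since RMA gives all arrays much the same distribution, a shift common to most transcripts is hidden. Their software versions are not given in the sources used here. Precision is limited by the number of arrays.

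Control probe sets (183) were not tested. Of 18769 tested, 13647 had 1 symbol, 402 several and 4720 were unnamed here. 13635 of those with 1 symbol matched a current gene. Groups were compared with limma 3.58.1 (lmFit, eBayes; R 4.3.3) after the study's methods, p-values being adjusted by Benjamini-Hochberg over the whole table. The script was tested on simulated data. Members and gene lists were chosen with earlier results of these data known. All members were named, then up to 2 genes of each function list with the largest absolute change, the 5 genes nearest to pot, and l(2)gl. Of the cell type markers, those named are called, defining, opposite in sign to their list, or given to show how its members differ. They were picked after their values were seen. Lists used the probe set with the highest mean. Alternatives were a repeated quantile normalisation, centring on array medians, the brighter probe sets alone, a robust prior with an intensity trend, weights for arrays, a block for the replicate number, removal of each array, no fold cut-off, and averaging a gene's probe sets. Where 1 FRT82B array remained, the spread of the lgl arrays stood in for it.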

Additional observations from a re-analysis of the deposited data

How the results depend on the processing

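The number of called probe sets depended strongly on the fit, and that of the ZP domain family with it. Of all probe sets limma called 197, of which 1 was in the family (pot). It called 395 and 2 (pot and 1631454_a_at of pio) among the brighter probe sets, 12 and 0 with array weights, and 0 and 0 with a replicate block. In the blocked fit 616 probe sets, 3 of them in the family, passed an unadjusted p under 0.05 with the same fold cut-off. With no fold cut-off 305 were called over all probe sets. With 1 array left out, the counts ranged between 0 and 1306 over all probe sets and between 0 and 3 in the family. The 0 came from each lgl array left out, where 538 to 584 passed an unadjusted p with the fold cut-off, and 3 or 4 of these were in the family. Without FRT82B array 1 there were 71 (0 in the family), and without FRT82B array 2 there were 1306 (3 in the family). The cause was not tested. The replicate numbers of the titles pair no arrays by their labels, and deviations of same-numbered arrays from their group means correlated at 0.03 and 0.07.

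Of the 10 probe sets of the family, 8 kept the sign of their change under every alternative run. The exceptions were tyn and 1628672_at of pio, which changed sign without FRT82B array 2 (0.02 and 0.04). The change of pot ranged from 2.34 to 3.44, with an adjusted p from 0.0159 to 0.314, and it was called under 5 of 11 alternatives. The family's median change of 0.65 ranged from 0.30 (without FRT82B array 1) to 0.95 (brighter probe sets, which leave out dyl, mey and cyr). Readings under the array medians limit what can be said of dyl, mey and cyr.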
